A study of Sus scrofa with 28 samples.

Results

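The infarct zone of pigs given PBS was followed from day 3 to day 28 after myocardial infarction, as a measure of how an infarct given vehicle alone changes while it scars. Members were chosen by their labels: the infarct zone libraries of PBS animals 571, 573 and 575 on day 3, and of PBS animals 523, 536 and 547 on day 28, which are 6 of the 28 libraries of the series. All animals were wild-type (WT) Landrace pigs aged 3 months, male and female, in which a coronary artery was closed with a balloon for 60 min and then reopened. PBS (called saline in the study's methods) was the vehicle. The other arm of the series received Agrin, an extracellular matrix protein, at 33 µg per kg, and gave 4 infarct libraries on each day. A remote zone library of the same heart went with each infarct library, and a dye for living tissue was used to tell the zones. Each animal was sampled once, so day 3 and day 28 compare different hearts, and a piece of tissue holds whatever scar, surviving muscle and border it was cut with.

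After an infarct, dead muscle is cleared by neutrophils and then by macrophages, and fibroblasts divide, become contractile myofibroblasts and lay down first a loose matrix rich in fibronectin, tenascin and osteopontin and then collagen. As a scar matures, dividing cells and inflammatory macrophages become rare, collagen is crosslinked, and proteoglycans, elastic fibres and proteins also found in tendon and cartilage are added. Adult cardiomyocytes hardly divide, so muscle within an infarct is mostly muscle that survived. Single genes of these processes were read as CPM, a gene's reads as a share of its library, scaled by the trimmed mean of M-values (TMM), a unit that allows a gene to be compared between libraries but not with another gene. Values are always given in the order 571, 573, 575 for day 3 and 523, 536, 547 for day 28. A gene rose or fell when edgeR's quasi-likelihood test gave a Benjamini-Hochberg adjusted p under 0.05 over all genes tested, and it was called when it also changed at least 2-fold with a count above 30. The value after ± is a standard error of a log2 fold change, worked out as its size over the square root of the test's F statistic.

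The 6 libraries held 18.37 to 30.42 M counts. They did not hold the same mixture of tissue. The summed level of 4 cardiomyocyte markers (TNNT2, MYH7, ACTN2 and RYR2) was 1969, 14050 and 5025 CPM on day 3 and 7336, 36920 and 31720 CPM on day 28, against 29140 to 51810 CPM in the 6 remote PBS libraries. Day 28 animal 523 was within the day 3 range, whereas 536 and 547 were above every day 3 library. They were still below their own remote libraries, at 47880 and 43580 CPM, and the lowest remote value, 29140 CPM, was that of animal 523. Transcripts of the mitochondrial genome took 5.78, 8.25 and 6.59% of reads on day 3, and 6.83, 28.3 and 25.6% on day 28. Remote libraries had 23.1 to 35.3%, with 34.5 and 35.3% in those of 536 and 547. Summed fibroblast markers (COL1A1, PDGFRA, DCN and POSTN) ran the other way on day 28, at 23330 CPM in 523 and 6209 and 5269 CPM in 536 and 547, against 11760, 20840 and 10130 CPM on day 3. Profiles of the day 28 libraries 536 and 547 correlated across genes at r = 0.991, and that of 523 with them at 0.951 and 0.950. A second irregularity concerned animal 573, whose infarct library held 733 reads of 3 Y-linked genes and whose remote library held 0, so the 2 libraries labelled 573 go against each other, and which of them goes against its label was not tested. Animal 523 was also the one day 28 PBS animal with reads of these Y-linked genes, 1117 in its infarct and 1260 in its remote library, against 0 in all libraries of 536 and 547, so it differed from them in sex as well. Of the day 3 animals, 575 had 996 such reads in its infarct and 1102 in its remote library, and 571 had 0 in both. The part of sex in the results was not tested. Values without a library are given below for named genes whose test then passes or fails.

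**Figure D1:**
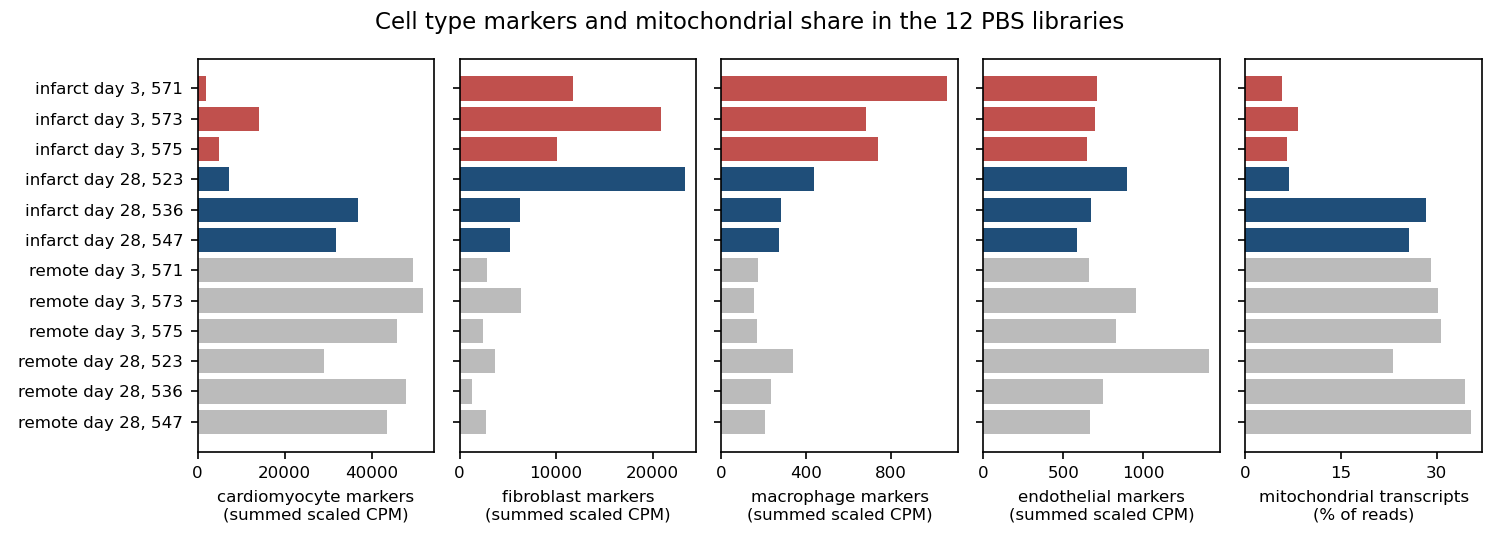
Summed TMM-scaled CPM of cardiomyocyte, fibroblast, macrophage and endothelial markers and the percentage of reads from the mitochondrial genome, 1 bar per PBS library (red, infarct day 3; blue, infarct day 28; grey, remote). Day 28 infarct library 523 resembles the day 3 infarcts in muscle content, while 536 and 547 lie between these and their own remote libraries.

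Between day 3 and day 28, 3442 of 15060 genes rose (22.9%) and 3634 fell (24.1%), and 2091 (13.9%) were called higher and 1699 (11.3%) lower, which makes 47.0% that rose or fell and 25.2% that were called. These percentages are the background for every count below. Gene lists were chosen with earlier results of these data known, so their counts and medians describe the lists and do not test them. Groups of 3 that do not overlap were found higher on day 28 for 21.0% of genes and lower for 27.0%. The median log2 fold change of all genes was 0.03. When libraries were scaled by their totals alone the median became -0.24 and the share of called genes that were higher went from 55.2% to 36.3%, so small shifts of a whole list are not read as changes here. Without 523 there were 2208 called higher and 2110 lower, of which 1778 and 1628 were also called with it. Without 573 there were 2190 and 1801, of which 1913 and 1638 were also called with it.

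**Figure D2:**
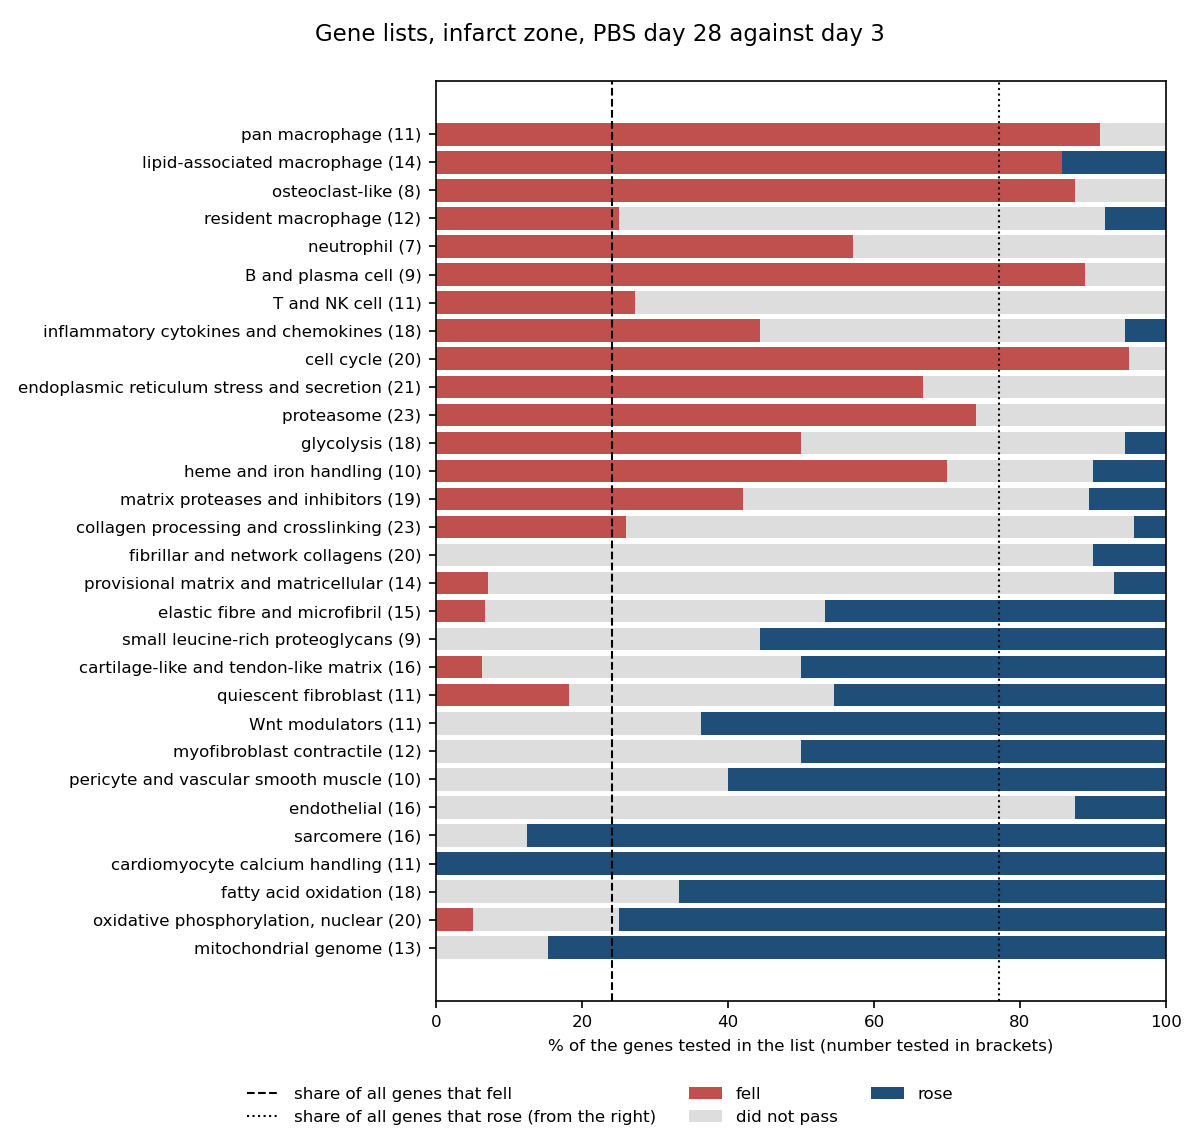
Share of the tested genes of each list that fell (red), rose (blue) or did not pass (grey) in the infarct zone, PBS day 28 against day 3, by edgeR at an adjusted p under 0.05. Macrophage, cell cycle and proteasome genes lie mostly on the falling side and muscle genes on the rising side, while the collagen and endothelial lists hold few genes that passed (dashed line, 24.1% of all genes fell; dotted line, 22.9% of all genes rose, measured from the right).

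Macrophage genes were much lower on day 28, and the size of the fall differed from gene to gene. SPP1 encodes osteopontin, a secreted glycoprotein made in quantity by macrophages of injured tissue, and lies on chromosome 8 from 131077786 to 131085334 of Sscrofa11.1 in the RefSeq annotation. It stood at 9112, 11300 and 20120 CPM on day 3 and 94.6, 33.9 and 62.4 CPM on day 28, against 3.69 to 31.2 CPM in the remote libraries, and took 1.33, 1.42 and 2.73% of all reads on day 3. The groups were far apart, every day 28 library was still above the remote range, and SPP1 fell by 7.73 ± 0.88 log2 units (adjusted p = 4.22e-05). CD68, a lysosomal membrane protein of macrophages, stood at 202, 134 and 121 CPM on day 3 and 57.1, 24.3 and 20.2 CPM on day 28 and fell by 2.17 ± 0.40 log2 units (adjusted p = 0.00101). MSR1, a scavenger receptor, fell by 3.88 ± 0.31 log2 units (adjusted p = 5.46e-06), from 149.7, 86.8 and 119 CPM to 9.54, 6.82 and 7.79 CPM. Of 11 general macrophage genes, 10 fell and 0 rose, with a median of -2.18, and the groups did not overlap for 10 of them. They included SPI1, the transcription factor PU.1 (log2 fold change -2.27 ± 0.20, adjusted p = 8.42e-06), and ITGAM, the integrin CD11b (log2 fold change -2.25 ± 0.22, adjusted p = 1.79e-05). FCGR1A, an Fc receptor, was the member that did not pass (log2 fold change -0.30 ± 0.20, adjusted p = 0.227). In bulk tissue, fewer macrophages and less of these RNAs per macrophage cannot be told apart. With each of the 6 libraries left out in turn, 10 of the list still fell.

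The study's macrophage signature, taken from mouse cells, had 70 tested genes, of which 58 fell and 2 rose (median -1.76). Among the smallest p-values were those of HCLS1, a blood cell protein bound to actin (log2 fold change -2.17 ± 0.16, adjusted p = 3.22e-06), and LAT2, an adaptor of immune receptors (log2 fold change -3.13 ± 0.25, adjusted p = 5.31e-06). TM6SF1 and TMEM106A, the members that rose, changed by 0.85 ± 0.27 log2 units (adjusted p = 0.021) and by 0.52 ± 0.18 log2 units (adjusted p = 0.0327). Neither was stable. TM6SF1 did not pass without 547 (0.42, adjusted p = 0.131) or 571 (0.78, adjusted p = 0.0726), nor TMEM106A without 523 (0.42, adjusted p = 0.0867), 536 (0.52, adjusted p = 0.0683), 573 (0.52, adjusted p = 0.0679) or 575 (0.35, adjusted p = 0.138), and neither rose with library totals or in the 6 libraries alone. The genes of lipid-associated macrophages, which take up debris and lipid, also fell, 12 of 14 with a median of -2.36. TREM2, their lipid receptor, went from 84.4, 47.0 and 65.8 CPM to 15.3, 3.56 and 4.84 CPM (log2 fold change -3.06 ± 0.70, adjusted p = 0.00377), and GPNMB, a lysosomal glycoprotein, from 486, 243 and 350 CPM to 152, 46.9 and 42.5 CPM (log2 fold change -2.16 ± 0.51, adjusted p = 0.00443). In both genes the groups were separate and 523 was the highest day 28 library. CTSL, a lysosomal protease, fell by 5.09 ± 0.54 log2 units (adjusted p = 2.95e-05), CTSB, another one, by 2.56 ± 0.23 log2 units (adjusted p = 8.38e-06), and PLIN2, a coat protein of lipid droplets, by 3.11 ± 0.26 log2 units (adjusted p = 5.64e-06). The 2 members that rose, LPL (log2 fold change 2.09 ± 0.52, adjusted p = 0.0057) and CD36 (log2 fold change 1.42 ± 0.43, adjusted p = 0.0173), serve fat uptake in muscle and other cells as well. They stood at 115, 626 and 452 CPM and 108, 374 and 322 CPM on day 28, lowest in 523 and highest in 536 as the cardiomyocyte markers were. The part of muscle content in their rise was not tested. CD36 did not pass without 536 (1.10, adjusted p = 0.074), 547 (1.26, adjusted p = 0.0528) or 575 (1.18, adjusted p = 0.0731).

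A group of genes best known from osteoclasts and fused macrophages had the lowest median of the lists, at -4.85, with 7 of 8 fallen. ACP5, an acid phosphatase, stood at 446, 561 and 640 CPM on day 3 and 40.1, 9.12 and 6.24 CPM on day 28 (log2 fold change -4.89 ± 0.78, adjusted p = 0.000367). ATP6V0D2, a subunit of the lysosomal proton pump, was at 47.4, 64.4 and 92.0 CPM on day 3 and 2.28, 0.166 and 0.189 CPM on day 28 (log2 fold change -6.26 ± 0.84, adjusted p = 0.00012), and DCSTAMP, a membrane protein needed for cell fusion, at 3.97, 3.04 and 8.89 CPM on day 3 and 0.316, 0.0333 and 0.0756 CPM on day 28 (log2 fold change -5.18 ± 0.72, adjusted p = 0.000139). In these 3 genes 523 was the highest day 28 library, and none overlapped with day 3. MMP9, a gelatinase of neutrophils, macrophages and osteoclasts, went from 379, 175 and 172 CPM to 18.5, 2.03 and 2.23 CPM (log2 fold change -5.00 ± 0.80, adjusted p = 0.000388). CALCR, the calcitonin receptor that marks mature osteoclasts, was below 1 CPM in every library and did not pass (log2 fold change -1.22 ± 0.55, adjusted p = 0.0859). With library totals alone CALCR did pass in edgeR (-1.49, adjusted p = 0.0415).

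Genes of resident macrophages did not follow this pattern, since 3 of 12 fell and 1 rose, shares near or below the background. C1QA, a chain of complement C1q, was at 53.6, 50.1 and 25.0 CPM on day 3 and 116, 73.8 and 93.9 CPM on day 28. All day 28 values were above all day 3 values, yet the test missed the threshold (log2 fold change 1.14 ± 0.49, adjusted p = 0.0711), which C1QA passed with DESeq2 (1.19, adjusted p = 0.0346) and in the 6 libraries alone (1.14, adjusted p = 0.0433). CD163, the receptor for haemoglobin bound to haptoglobin, was at 582, 531 and 162 CPM on day 3 and 124, 135 and 77.2 CPM on day 28 (log2 fold change -1.92 ± 0.58, adjusted p = 0.0167), and did not pass without 547 (log2 fold change -1.72, adjusted p = 0.0615) or without 571 (-1.63, adjusted p = 0.0605). FOLR2, a folate receptor, rose by 1.90 ± 0.51 log2 units (adjusted p = 0.00915), whereas VSIG4, a complement receptor, fell by 1.45 ± 0.33 log2 units (adjusted p = 0.00333) and F13A1, a clotting factor of macrophages, fell by 2.17 ± 0.34 log2 units (adjusted p = 0.000309). Reads of 1 gene per 1000 reads of another are free of any scaling between libraries. CD68 itself fell, so a gene that did not change also comes out higher in relation to CD68 on day 28. The genes for such ratios were chosen after their values were seen, so they are descriptions without a test. Per 1000 reads of CD68, C1QA gave 265, 373 and 206 on day 3 and 2027, 3033 and 4641 on day 28. C1QC gave 582, 836 and 509 on day 3 and 4224, 6328 and 10140 on day 28, and FOLR2 gave 32.2, 97.0 and 46.6 on day 3 and 901, 886 and 1011 on day 28. TREM2 gave 417, 349.8 and 542 on day 3 and 268, 146 and 239 on day 28. GPNMB, at 2398, 1811 and 2885 on day 3 and 2654, 1930 and 2101 on day 28, overlapped between days. CD163, at 2873, 3955 and 1338 on day 3 and 2163, 5562 and 3817 on day 28, overlapped as well. The C1q genes and FOLR2 were far higher relative to CD68 on day 28 in every library, including 523.

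**Figure D3:**
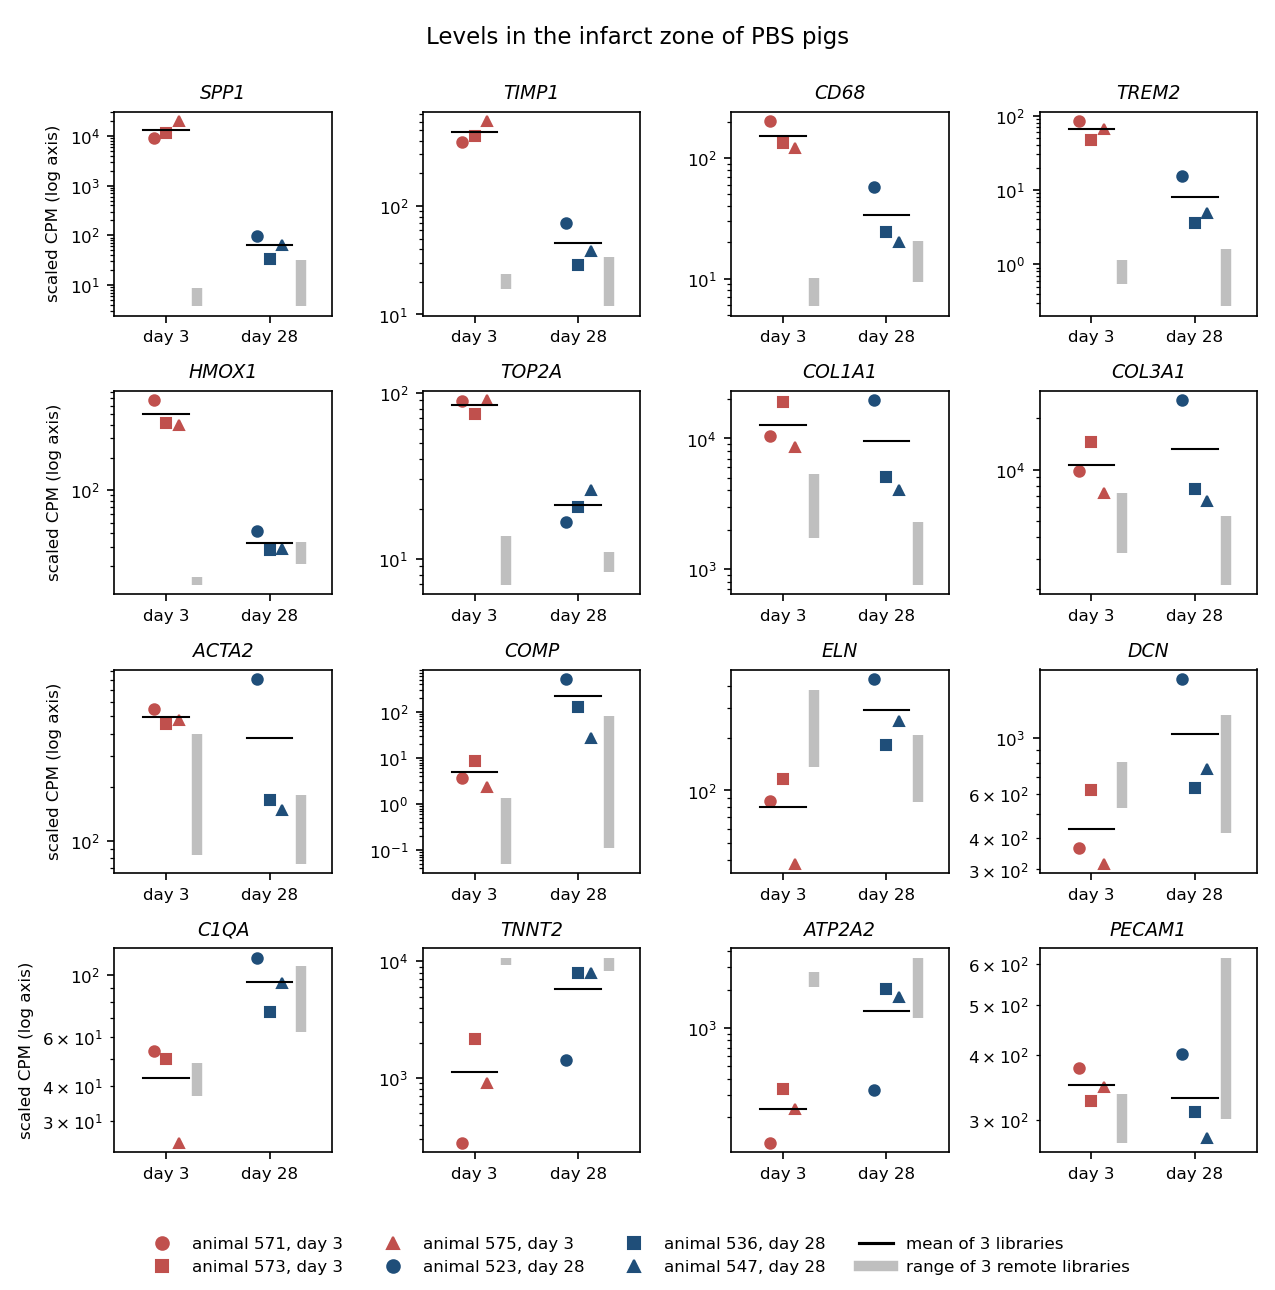
TMM-scaled CPM (log axis) of 16 genes in the 6 infarct PBS libraries (symbols, 1 per animal; line, mean of 3), with the range of the 3 remote PBS libraries of the same day in grey. SPP1, TIMP1, CD68, TREM2, HMOX1 and TOP2A fall without overlap, COL1A1, COL3A1 and ACTA2 overlap with 523 the highest library of day 28, and TNNT2 and ATP2A2 are high in 536 and 547.

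Genes that handle haem and iron, which are set free from blood and dying muscle, were lower on day 28, and 7 of 10 genes of this list fell. HMOX1, the enzyme that opens the haem ring, was at 679, 418 and 402 CPM on day 3 and 42.1, 27.9 and 28.8 CPM on day 28 and fell by 3.92 ± 0.27 log2 units (adjusted p = 2.12e-06). BLVRB, biliverdin reductase B, fell by 1.73 ± 0.16 log2 units (adjusted p = 1.19e-05), and SLC11A1, a metal pump of the phagosome, fell by 4.98 ± 0.56 log2 units (adjusted p = 3.58e-05) from 165, 149.6 and 196 CPM to 10.7, 3.03 and 2.38 CPM. HPX, which encodes haemopexin, rose by 1.29 ± 0.47 log2 units (adjusted p = 0.0379) but was below 1 CPM throughout, and it passed without 547 but not without any other of the 6 libraries (0.98 to 1.54, adjusted p = 0.0551 to 0.159). Transcripts of red blood cells were also lower. HBB, beta globin, was at 398, 161 and 92.3 CPM on day 3 and 8.95, 33.6 and 82.1 CPM on day 28 (log2 fold change -2.39 ± 0.79, adjusted p = 0.0251), and the groups came close, with 92.3 CPM the lowest on day 3 and 82.1 CPM the highest on day 28. HBB did not pass without 571 (-1.61, adjusted p = 0.124) or 536 (-2.25, adjusted p = 0.0777). Of the 3 erythroid genes tested 3 fell, but 0 passed without 571, the library with the most HBB, and 1 without 523 or 536.

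The neutrophil genes named here fell to under 1 CPM on day 28. S100A8, a calcium-binding protein of neutrophils and monocytes, was at 6.64, 7.34 and 7.53 CPM on day 3 and 0.210, 0.0665 and 0.113 CPM on day 28 (log2 fold change -5.74 ± 0.56, adjusted p = 1.58e-05), and S100A12 at 24.6, 18.4 and 20.7 CPM on day 3 and 0.316, 0.333 and 0.378 CPM on day 28 (log2 fold change -5.94 ± 0.48, adjusted p = 5.31e-06). TCN1, a vitamin B12 carrier stored in neutrophil granules, had the largest fall of the named genes, from 68.3, 24.2 and 24.6 CPM to 0.245, 0.0998 and 0.0378 CPM (log2 fold change -8.19 ± 1.00, adjusted p = 6.35e-05). In all, 4 of 7 neutrophil genes fell. Among 18 cytokines and chemokines, 8 fell and 1 rose. CCL2, the main chemokine that attracts monocytes, was at 131, 63.5 and 199 CPM on day 3 and 29.2, 6.05 and 16.3 CPM on day 28 (log2 fold change -2.93 ± 0.75, adjusted p = 0.00705). OSM, oncostatin M, fell by 3.16 ± 0.52 log2 units (adjusted p = 0.000467), and CSF1, the growth factor on which macrophages depend, fell by 1.54 ± 0.41 log2 units (adjusted p = 0.00905), from 184, 156 and 344 CPM to 116, 55.9 and 62.9 CPM, and did not pass without 575 (-1.12, adjusted p = 0.0504). CXCL10, induced by interferon, was the one that rose, at 3.97, 2.13 and 4.52 CPM on day 3 and 5.44, 4.86 and 24.2 CPM on day 28 (log2 fold change 1.69 ± 0.58, adjusted p = 0.0295), and 547 was by far its highest library. Without 547 its log2 fold change was 0.54 (adjusted p = 0.333), and CXCL10 did not pass either without 571 (1.78, adjusted p = 0.0649), 573 (1.44, adjusted p = 0.0943) or 575 (1.90, adjusted p = 0.0504), with library totals or in the 6 libraries alone. Plasma cell genes fell as well, 8 of 9 on the B and plasma cell list. JCHAIN, which joins antibody units, was at 107, 31.1 and 31.7 CPM on day 3 and 4.91, 5.16 and 20.0 CPM on day 28 (log2 fold change -2.50 ± 0.63, adjusted p = 0.00619), with 571 highest, and MZB1, a folding helper for antibodies, fell by 2.85 ± 0.61 log2 units (adjusted p = 0.00245). Of 11 T and NK cell genes 3 fell, and these were NKG7, CCL5 and IL7R, while CD3E, part of the T cell receptor, was at 4.59, 2.43 and 5.66 CPM on day 3 and 4.88, 2.10 and 9.30 CPM on day 28 with complete overlap (log2 fold change 0.35 ± 0.61, adjusted p = 0.653), and at -0.28 (adjusted p = 0.748) without 547. CCL5 (log2 fold change -1.88, adjusted p = 0.0406) did not pass without 523 (-1.61, adjusted p = 0.099), 536 (-1.46, adjusted p = 0.123), 573 (-2.01, adjusted p = 0.0515) or 575 (-1.37, adjusted p = 0.159).

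The largest falls by fold, among called genes with a mean of at least 5 CPM, mixed such cell products with genes of no obvious cell type. Besides TCN1, SPP1, ATP6V0D2, S100A12 and S100A8 they were C1QL2, NYAP2, LY6D, ARG1 and TREH. ARG1, an arginase of alternatively activated macrophages in mice, stood at 24.3, 15.2 and 46.0 CPM on day 3 and 0.175, 0.566 and 0.416 CPM on day 28 (log2 fold change -6.19 ± 0.56, adjusted p = 1.03e-05). TREH, the enzyme that splits trehalose, went from 106, 51.9 and 73.9 CPM to 3.26, 0.765 and 0.529 CPM (log2 fold change -5.66 ± 0.75, adjusted p = 0.000114), and C1QL2, a secreted protein related to C1q, from 16.3, 10.6 and 15.6 CPM to 0.0702, 0.0665 and 0.113 CPM (log2 fold change -7.34 ± 0.43, adjusted p = 1.18e-06). LY6D fell by 6.55 ± 1.58 log2 units (adjusted p = 0.00505) and NYAP2 by 7.33 ± 0.75 log2 units (adjusted p = 2.25e-05). Day 28 values of all 10 were below every day 3 value by construction of the rule.

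Cell cycle transcripts were higher in all 3 animals of day 3 than in all 3 of day 28. Of 20 cell cycle genes 19 fell, with a median of -2.00, and the groups did not overlap for 19. TOP2A, the topoisomerase that untangles replicated DNA, was at 89.4, 73.9 and 90.3 CPM on day 3 and 16.5, 20.4 and 25.9 CPM on day 28 (log2 fold change -2.01 ± 0.22, adjusted p = 3.23e-05). PLK1, a kinase of mitosis, was at 53.4, 59.7 and 60.1 CPM on day 3 and 6.14, 8.55 and 7.83 CPM on day 28 (log2 fold change -2.94 ± 0.18, adjusted p = 1.25e-06), CENPF, a protein of the kinetochore, at 46.9, 42.1 and 45.1 CPM on day 3 and 8.10, 8.18 and 10.6 CPM on day 28 (log2 fold change -2.32 ± 0.21, adjusted p = 8.88e-06), and BIRC5, survivin, at 32.6, 33.6 and 32.4 CPM on day 3 and 5.61, 5.89 and 7.98 CPM on day 28 (log2 fold change -2.34 ± 0.19, adjusted p = 5.31e-06). Unlike matrix and muscle genes, these 4 did not set 523 apart from 536 and 547. TYMS, a thymidylate enzyme, did not pass (log2 fold change -0.50 ± 0.49, adjusted p = 0.416) but fell without 523 (-1.29, adjusted p = 0.025). Leaving out any library kept the count at 18 or 19 and the median between -2.21 and -1.92. Remote libraries had 6.92 to 13.6 CPM of TOP2A, below all 3 infarct libraries of day 28.

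Genes of mitosis are often controlled together through a CCAAT box, bound by the factor NF-Y, and a cell cycle homology region (CHR), whose usual letters are TTTGAA. Promoter windows were read because these genes moved together, from 250 bases before to 50 bases after the start of each RefSeq gene on Sscrofa11.1, on both strands. A window was found for 23 of the 24 listed genes. These include MKI67, CCNA2, AURKA and RRM2, which had no matched gene in the counts, and TYMS, which did not pass. CCAAT was in 18 of these 23 (78.3%) and in 35.4% of 19547 protein-coding windows, TTTGAA was in 10 (43.5%) against 14%, and both were in 8 (34.8%) against 5.54%. The motifs can overlap by 1 letter. A match is a string of letters and not a measured binding site. Of the cell cycle genes named above, BIRC5 had 0 copies of CCAAT and 1 of TTTGAA, PLK1 had 1 and 0, and TYMS had 0 and 0. The windows of TOP2A, with 5 copies of CCAAT and 2 of TTTGAA, and of CENPF, with 3 copies of CCAAT and 0 of TTTGAA, are shown 5′ to 3′ to let the spacing of the copies be seen, with copies in capitals (ATTGG and TTCAAA are the same motifs on the other strand).
TOP2A (chr12:22001050-22001349, plus strand): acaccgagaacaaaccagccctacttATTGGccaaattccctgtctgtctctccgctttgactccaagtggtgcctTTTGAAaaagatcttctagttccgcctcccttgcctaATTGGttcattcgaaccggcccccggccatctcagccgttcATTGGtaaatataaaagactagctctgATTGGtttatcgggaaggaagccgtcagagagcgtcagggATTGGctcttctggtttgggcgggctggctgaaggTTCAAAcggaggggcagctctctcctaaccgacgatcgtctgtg
CENPF (chr9:129012192-129012491, minus strand): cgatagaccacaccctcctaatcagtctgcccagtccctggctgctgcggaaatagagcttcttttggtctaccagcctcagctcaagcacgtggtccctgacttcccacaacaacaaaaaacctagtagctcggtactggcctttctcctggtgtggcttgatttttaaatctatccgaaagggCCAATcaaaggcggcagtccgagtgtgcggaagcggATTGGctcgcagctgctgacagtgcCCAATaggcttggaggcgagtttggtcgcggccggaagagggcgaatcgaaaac

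Genes that fold and export proteins were lower on day 28. Of 21 genes of the endoplasmic reticulum 14 fell and 0 rose (median -0.84), led by SEC61B, part of the channel for secreted proteins (57.6, 64.5 and 78.8 CPM, then 31.7, 18.3 and 22.3 CPM, log2 fold change -1.47 ± 0.22, adjusted p = 0.000237), and by PDIA3, which forms disulphide bonds (log2 fold change -1.25 ± 0.20, adjusted p = 0.000426). On the proteasome list 17 of 23 genes fell, but by small amounts of the kind that scaling moves (median -0.56, 0 of them called), such as PSMD2 (log2 fold change -0.83 ± 0.15, adjusted p = 0.000847), and the number that passed was 7 without 575, 10 without 523 and 3 in a fit of the 6 libraries alone. Glycolysis genes moved both ways. ENO1, the enolase of most tissues, was at 949, 902 and 942 CPM on day 3 and 243, 144 and 174 CPM on day 28 (log2 fold change -2.32 ± 0.21, adjusted p = 9.05e-06), and LDHA, the lactate dehydrogenase chain of glycolytic cells, at 538, 385 and 614 CPM on day 3 and 52.7, 86.9 and 122 CPM on day 28 (log2 fold change -2.56 ± 0.31, adjusted p = 6.15e-05), whereas PFKM, the phosphofructokinase of muscle, rose by 2.72 ± 0.62 log2 units (adjusted p = 0.00377). Of 18 genes 9 fell, HK3, a hexokinase of leukocytes, among them (log2 fold change -2.93 ± 0.37, adjusted p = 7.57e-05).

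Collagen transcripts themselves were not shown to differ between the days. COL1A1, a chain of collagen I, was at 10410, 19130 and 8655 CPM on day 3 and 19720, 5094 and 4059 CPM on day 28, and COL3A1, of collagen III, at 9837, 14590 and 7278 CPM on day 3 and 25620, 7670 and 6520 CPM on day 28. In both, 523 was the highest library of all and 536 and 547 the lowest of all or nearly so, and the tests gave log2 fold change -0.40 ± 0.65, adjusted p = 0.633, and log2 fold change 0.33 ± 0.57, adjusted p = 0.658. A p that misses the threshold does not show equal levels. Of 20 collagens 2 rose and 0 fell. Those that rose were COL14A1, which decorates collagen fibrils (184, 221 and 128 CPM, then 932, 223 and 229.8 CPM, log2 fold change 1.38 ± 0.51, adjusted p = 0.0399), and COL21A1, another fibril-associated collagen (log2 fold change 1.63 ± 0.53, adjusted p = 0.022). The outcome depended on 523. Without it 0 of the list rose and 6 fell, COL1A1 was lower by 1.48 (adjusted p = 0.0496) on the log2 scale, and the median went from 0.056 to -0.54. COL14A1 did not pass without 523 (0.35, adjusted p = 0.412), 571 (1.40, adjusted p = 0.0888), 573 (1.56, adjusted p = 0.0524) or 575 (1.19, adjusted p = 0.131), nor COL21A1 without 523 (0.99, adjusted p = 0.106) or 575 (1.29, adjusted p = 0.083). COL3A1 changed sign without 523, to -0.57 (adjusted p = 0.334), and COL1A1 without 573, to 0.01 (adjusted p = 0.99). Library 523 had the lowest muscle and the highest fibroblast marker sum of day 28, and the part of this make-up in the collagen values was not tested. The ratio of the 2 chains differed between days. COL3A1 gave, per 1000 reads of COL1A1, 945, 763 and 841 on day 3 and 1300, 1506 and 1606 on day 28, without overlap.

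Some enzymes that fold collagen fell. On the list of collagen processing 6 of 23 genes fell and 1 rose, near the background, and those with the smallest p were enzymes of the endoplasmic reticulum: PLOD3, a lysyl hydroxylase (154, 164 and 154 CPM, then 87.6, 59.6 and 68.2 CPM, log2 fold change -1.13 ± 0.16, adjusted p = 0.000179), PPIB, a prolyl isomerase (log2 fold change -1.40 ± 0.21, adjusted p = 0.000228), and P4HB, which serves prolyl hydroxylase and disulphide formation (log2 fold change -1.24 ± 0.22, adjusted p = 0.000729). ADAMTS2, which trims the ends of procollagen, rose by 1.06 ± 0.41 log2 units (adjusted p = 0.0497), a call lost without 523 (0.46, adjusted p = 0.29), 571 (1.02, adjusted p = 0.12) or 575 (0.90, adjusted p = 0.155), in the 6 libraries alone, without the filter and with library totals. LOX, the extracellular enzyme that crosslinks collagen and elastin, was at 77.8, 73.9 and 64.8 CPM on day 3 and 184, 55.9 and 46.9 CPM on day 28 (log2 fold change 0.41 ± 0.43, adjusted p = 0.459), with 523 above and 536 and 547 below all day 3 values. Without 523 its log2 fold change was -0.49 (adjusted p = 0.17). Of the early matrix proteins, FN1, fibronectin, was at 6015, 5291 and 4747 CPM on day 3 and 3714, 1157 and 959 CPM on day 28, lower in every day 28 library, and missed the threshold (log2 fold change -1.46 ± 0.57, adjusted p = 0.0507), which it passed without 523, at -2.34 (adjusted p = 0.00277). TNC, tenascin C, was at 636, 895 and 475 CPM on day 3 and 622, 162 and 223 CPM on day 28 (log2 fold change -0.99 ± 0.65, adjusted p = 0.223), and fell without 523 (-1.80, adjusted p = 0.0383). POSTN, periostin, was at 858, 933 and 1071 CPM on day 3 and 1796, 428 and 403 CPM on day 28 (log2 fold change -0.12 ± 0.52, adjusted p = 0.859), fell without 523 (-1.20, adjusted p = 0.0161) and had the opposite sign without 536 (0.20, adjusted p = 0.787) or 547 (0.22, adjusted p = 0.758). CTHRC1, a secreted protein of activated fibroblasts, did not pass either (log2 fold change -0.43 ± 0.62, adjusted p = 0.59). CCN5, a matricellular protein, was the 1 gene of 14 on this list that rose (1.46, 1.74 and 1.80 CPM, then 14.1, 3.59 and 1.70 CPM, log2 fold change 1.96 ± 0.61, adjusted p = 0.0182), though 547 overlapped with day 3, and SPP1 the 1 that fell. CCN5 did not pass without 523 (0.67, adjusted p = 0.186) or 571 (1.87, adjusted p = 0.0625). Without 523, 0 of the list rose and 7 fell.

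Genes of a cartilage-like and tendon-like matrix rose. Of 16 tested 8 rose and 1 fell, with a median of 1.93, and 3 of the 10 largest rises by fold were on this list. COMP, a pentameric glycoprotein that holds collagen fibrils together, lies on chromosome 2 from 59061409 to 59068951. It stood at 3.75, 8.42 and 2.39 CPM on day 3 and 527, 129 and 27.1 CPM on day 28 (log2 fold change 5.56 ± 1.28, adjusted p = 0.00378). CILP2, a protein of the deep layers of cartilage, lies nearby on the same chromosome, from 58383568 to 58391973, and stood at 0.589, 0.781 and 0.110 CPM on day 3 and 336, 62.1 and 39.8 CPM on day 28 (log2 fold change 8.21 ± 1.52, adjusted p = 0.000972). ACAN, the large proteoglycan aggrecan, was at 2.26, 1.26 and 0.624 CPM on day 3 and 233, 31.8 and 11.2 CPM on day 28 (log2 fold change 6.03 ± 0.97, adjusted p = 0.000394). For all 3 genes the groups were separate, and 523 had the most, 536 less and 547 the least. TNMD, a tendon membrane protein that was chosen after its values were seen, had 0 reads in all 3 day 3 libraries and 7.72, 1.46 and 1.74 CPM on day 28, at least 32.7-fold higher against a floor of 3 counts per library. FMOD, fibromodulin, was at 211, 273 and 165 CPM on day 3 and 2225, 449 and 305 CPM on day 28 (log2 fold change 2.20 ± 0.76, adjusted p = 0.0303), and did not pass without 523 (0.80, adjusted p = 0.278), 571 (2.18, adjusted p = 0.082), 573 (2.40, adjusted p = 0.0522) or 575 (2.04, adjusted p = 0.0972). CILP and THBS4, thrombospondin 4, had higher means on day 28 but did not pass (log2 fold change 1.77 ± 0.76, adjusted p = 0.0698, and log2 fold change 1.34 ± 0.68, adjusted p = 0.123), although CILP did with DESeq2 (1.82, adjusted p = 0.0229). CRTAC1, a cartilage protein, went against the list, from 1.68, 3.91 and 6.54 CPM to 0.210, 0.266 and 0.719 CPM (log2 fold change -3.34 ± 0.57, adjusted p = 0.0006). Without 523 the list still had 7 genes that rose, with a median of 1.11.

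Small proteoglycans, which coat collagen fibrils and set their thickness, rose in 5 of 9 cases (median 1.66). DCN, decorin, was at 366, 623 and 316 CPM on day 3 and 1730, 633 and 754 CPM on day 28 (log2 fold change 1.26 ± 0.42, adjusted p = 0.0246), PRELP, which anchors matrix to basement membranes, at 178, 308 and 96.4 CPM on day 3 and 2681, 548 and 452 CPM on day 28 (log2 fold change 2.66 ± 0.64, adjusted p = 0.00487), and ASPN, asporin, at 119.6, 159 and 84.9 CPM on day 3 and 681, 210.1 and 259 CPM on day 28 (log2 fold change 1.66 ± 0.50, adjusted p = 0.0162). The day 28 values lay above the day 3 values in these 3 genes, by little for DCN in 536. The count of 5 fell to 1 without 523, 1 without 571 and 1 without 575. DCN was at 0.67 (adjusted p = 0.124), 1.15 (adjusted p = 0.0836) and 1.07 (adjusted p = 0.0952) without these libraries in turn, and ASPN at 0.95 (adjusted p = 0.0834), 1.65 (adjusted p at 0.05 after rounding) and 1.46 (adjusted p = 0.0666). Of 15 genes of elastic fibres and microfibrils, the springs of the matrix, 7 rose and 1 fell. LTBP4, which tethers latent TGF-beta and guides elastin assembly, stood at 131, 285 and 125 CPM on day 3 and 1673, 817 and 818 CPM on day 28 (log2 fold change 2.61 ± 0.44, adjusted p = 0.000544), and FBLN5, which links elastin to cells, at 43.4, 80.8 and 50.7 CPM on day 3 and 186, 175 and 189.8 CPM on day 28 (log2 fold change 1.65 ± 0.31, adjusted p = 0.00102). FBLN5 was alike in the 3 day 28 libraries, unlike most matrix genes. LTBP3 rose by 2.10 ± 0.46 log2 units (adjusted p = 0.00277). ELN, elastin, was at 86.8, 117 and 37.7 CPM on day 3 and 440.1, 183 and 252 CPM on day 28 (log2 fold change 1.86 ± 0.68, adjusted p = 0.039), and did not pass without 523 (1.43, adjusted p = 0.107), 547 (1.95, adjusted p = 0.057), 571 (1.92, adjusted p = 0.0868) or 575 (1.52, adjusted p = 0.131). EMILIN1, a glycoprotein of elastic fibres, fell by 1.18 ± 0.32 log2 units (adjusted p = 0.0101). Without 523, 3 genes of the list rose and 3 fell, and 3 rose without 571 and 3 without 575.

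Ratios to COL1A1 do not depend on the scaling between libraries. PRELP gave, per 1000 reads of COL1A1, 17.1, 16.1 and 11.1 on day 3 and 136, 108 and 111 on day 28, and FMOD 20.3, 14.3 and 19.0 on day 3 and 113, 88.2 and 75.0 on day 28. LTBP4 gave 12.6, 14.9 and 14.5 on day 3 and 84.9, 160.3 and 202 on day 28, and DCN 35.1, 32.6 and 36.5 on day 3 and 87.7, 124 and 186 on day 28. In these 4 genes each day 28 library was above every day 3 library. PRELP was close to even over day 28, whereas LTBP4 and DCN were lowest in 523. COMP gave 0.361, 0.440 and 0.276 on day 3 and 26.7, 25.4 and 6.67 on day 28, CILP2 0.0566, 0.0409 and 0.0127 on day 3 and 17.02, 12.2 and 9.80 on day 28 and COL11A1, a minor fibrillar collagen of cartilage, 2.63, 2.20 and 2.67 on day 3 and 17.6, 13.8 and 7.40 on day 28. FN1 fell in relation to COL1A1, at 578, 277 and 548 on day 3 and 188, 227 and 236 on day 28, as did SFRP2, a Wnt-binding protein, at 61.1, 35.9 and 80.7 on day 3 and 24.4, 24.8 and 27.3 on day 28. POSTN, at 82.5, 48.8 and 124 on day 3 and 91.1, 84.1 and 99.3 on day 28, and ACTA2, at 52.9, 23.8 and 55.1 on day 3 and 41.2, 33.3 and 36.9 on day 28, overlapped between days.

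**Figure D4:**
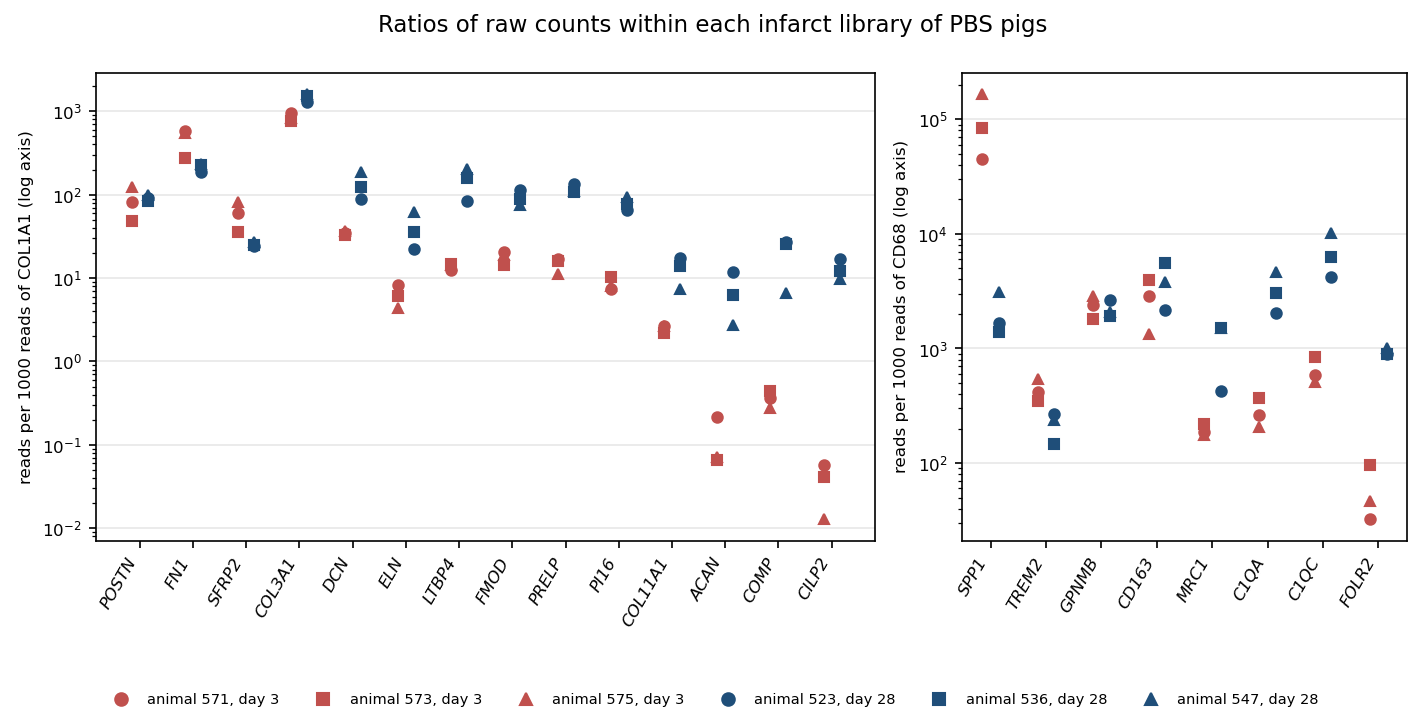
Reads of each gene per 1000 reads of COL1A1 (left) or of CD68 (right), from raw counts within a library, on log axes, with 1 symbol per animal (red, day 3; blue, day 28). COMP, CILP2, ACAN, PRELP, FMOD and LTBP4 rise in relation to COL1A1 in all 3 day 28 libraries, and POSTN does not. C1QA, C1QC and FOLR2 rise in relation to CD68, which itself fell, while SPP1 falls and GPNMB and CD163 overlap.

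Contractile and signalling genes of fibroblasts gave mixed results. ACTA2, the smooth muscle actin that marks myofibroblasts, was at 551, 454 and 477 CPM on day 3 and 813, 169.6 and 149.9 CPM on day 28 (log2 fold change -0.39 ± 0.58, adjusted p = 0.606), again highest in 523 and lowest in 536 and 547. Without 523 ACTA2 fell by 1.63 (adjusted p = 0.0081) on the log2 scale. Of 12 contractile genes 6 rose and 0 fell. Among the risers were SYNPO2 (log2 fold change 2.21 ± 0.36, adjusted p = 0.000408), PALLD (log2 fold change 0.79 ± 0.15, adjusted p = 0.00093) and MYL9 (log2 fold change 1.48 ± 0.29, adjusted p = 0.00142). Their proteins are also used by cardiac or smooth muscle. MYL9 and SYNPO2 were highest in 536 or 547, and the part of muscle content in the rises was not tested. Without 523, 5 rose and 4 fell. The study's myofibroblast signature had 82 tested genes, taken from mouse cells, of which 15 rose and 6 fell (median 0.19). Without 523, 6 rose and 29 fell (median -0.50). PALLD and FBLN5 (log2 fold change 1.65 ± 0.31, adjusted p = 0.00102) were its risers with the smallest p, and TIMP1 had the smallest p of those that fell. Genes of resting fibroblasts rose in 5 of 11 cases, among them ABCA8, a lipid transporter (log2 fold change 3.19 ± 0.67, adjusted p = 0.00219), and GSN, gelsolin, which severs actin filaments (659.8, 894 and 658 CPM, then 4496, 1663 and 1725 CPM, log2 fold change 1.83 ± 0.41, adjusted p = 0.00319). CXCL14, a chemokine of the same list, fell by 3.05 ± 0.58 log2 units (adjusted p = 0.00123), and PDGFRA, the receptor that marks fibroblasts, fell by 0.96 ± 0.26 log2 units (adjusted p = 0.00998). Of 11 modulators of Wnt signalling 7 rose, with SFRP4 (4.34, 4.30 and 3.38 CPM, then 34.3, 15.3 and 15.1 CPM, log2 fold change 2.43 ± 0.43, adjusted p = 0.000777), DKK2 (log2 fold change 2.89 ± 0.43, adjusted p = 0.000234) and WNT5A (log2 fold change 1.34 ± 0.36, adjusted p = 0.00895) in front. Without 523 4 passed, and 3 without 571. TGFB1 fell by 1.04 ± 0.15 log2 units (adjusted p = 0.000199) while TGFB3, another isoform of transforming growth factor beta, rose by 1.44 ± 0.43 log2 units (adjusted p = 0.016). TGFB3 did not pass without 523 (0.69, adjusted p = 0.0927), 571 (1.37, adjusted p = 0.0563) or 575 (1.30, adjusted p = 0.0628).

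Proteases and their inhibitors that act during clearance were lower on day 28, 8 of 19 having fallen and 2 risen. TIMP1, an inhibitor of metalloproteases that also acts as a growth signal on fibroblasts, lies on chromosome X from 42103251 to 42106289. It was at 394, 440.5 and 609 CPM on day 3 and 70.0, 28.8 and 38.8 CPM on day 28, and fell by 3.39 ± 0.39 log2 units (adjusted p = 4.51e-05). PLAUR, the receptor for urokinase, was at 94.2, 60.1 and 95.2 CPM on day 3 and 12.9, 6.32 and 7.64 CPM on day 28 (log2 fold change -3.21 ± 0.31, adjusted p = 1.58e-05), and MMP19, a metalloprotease, fell by 2.49 ± 0.27 log2 units (adjusted p = 3.07e-05). In these 3 genes 523 was the highest day 28 library and still below every day 3 library. All 3 passed under each of the 14 alternatives run, among which that of adjusted p alone reuses the main fit and cannot differ. TIMP3, the inhibitor that stays bound to the matrix, rose instead, from 144, 176 and 105 CPM to 1244, 432 and 434 CPM (log2 fold change 2.31 ± 0.43, adjusted p = 0.001), so that TIMP3 gave, per 1000 reads of TIMP1, 367, 400.3 and 172 on day 3 and 17760, 15020 and 11180 on day 28. MMP11, another metalloprotease, rose by 1.56 ± 0.25 log2 units (adjusted p = 0.0004).

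Cardiomyocyte genes were higher on day 28, mainly in 536 and 547, the 2 libraries of that day with the highest summed cardiomyocyte markers. TNNT2 and MYH7 are part of that sum, so for them this is the same observation. Of 16 sarcomere genes 14 rose and 0 fell (median 2.49). TNNT2, cardiac troponin T, was at 279, 2175 and 912 CPM on day 3 and 1419, 7963 and 7990 CPM on day 28 (log2 fold change 2.37 ± 0.70, adjusted p = 0.0147), and did not pass without 575 (2.24, adjusted p = 0.0568). The day 28 library 523 was below day 3 library 573, so the groups overlapped, as they did for 14 of the 16 genes. TNNI3, cardiac troponin I, was at 5.68, 31.0 and 15.3 CPM on day 3 and 28.8, 228 and 219 CPM on day 28 (log2 fold change 3.20 ± 0.75, adjusted p = 0.00429), NEBL, an actin-binding protein of the Z disc, rose by 2.54 ± 0.60 log2 units (adjusted p = 0.00439), and MYOM1, a protein of the M band, by 2.44 ± 0.60 log2 units (adjusted p = 0.00551). MYH7, the slow myosin heavy chain, reached 5236, 24780 and 20040 CPM from 1480, 10790 and 3555 CPM and missed the threshold (log2 fold change 1.66 ± 0.66, adjusted p = 0.0542), which it passed without 523 (2.09, adjusted p = 0.00961) or without 573 (2.73, adjusted p = 0.00625). All 11 of 11 genes of calcium handling rose, such as ATP2A2, the pump that refills the calcium store (126, 332 and 233 CPM on day 3 and 328, 2034 and 1738 CPM on day 28, log2 fold change 2.57 ± 0.58, adjusted p = 0.00336), SLC8A1, the sodium-calcium exchanger (log2 fold change 2.02 ± 0.39, adjusted p = 0.00125), and CAMK2D, a kinase driven by calcium (log2 fold change 2.16 ± 0.49, adjusted p = 0.00335). The 6 libraries fitted without the Agrin animals left 2 sarcomere genes past the threshold, with the same median of 2.49.

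Energy genes of muscle went the same way. Of 18 genes of fatty acid oxidation 12 rose and 0 fell, led by DECR1 (36.1, 36.1 and 35.3 CPM, then 53.0, 161 and 142 CPM, log2 fold change 1.73 ± 0.31, adjusted p = 0.000806), PPARA, the transcription factor that drives the pathway (log2 fold change 2.95 ± 0.54, adjusted p = 0.000925), and HADHB (log2 fold change 1.73 ± 0.38, adjusted p = 0.003). Nuclear genes of oxidative phosphorylation rose in 15 of 20 cases and those of the mitochondrial genome in 11 of 13, for example NDUFS1, a subunit of complex I (log2 fold change 1.57 ± 0.40, adjusted p = 0.00723), and ND4L (log2 fold change 1.98 ± 0.46, adjusted p = 0.00427). The day groups overlapped for most of these genes. They were separate for 3 of 18, 1 of 20 and 1 of 13 genes of the 3 lists, against 21.0% of all genes higher and 27.0% lower. COX7A1, a muscle form of a complex IV subunit, fell by 0.83 ± 0.24 log2 units (adjusted p = 0.0146) from 1.52, 2.56 and 1.91 CPM, and did not pass without 573 (-0.61, adjusted p = 0.0684). The number of nuclear genes that rose was 19 without 523 but 4 without 536, 547 or 571, and 0 in a fit of the 6 libraries alone. Muscle genes can also be read against each other. MYOM2, an M band protein that is one of the 10 largest rises (4.84, 52.2 and 11.5 CPM on day 3 and 96.7, 1217 and 612 CPM on day 28, log2 fold change 4.82 ± 1.22, adjusted p = 0.00656), gave, per 1000 reads of TNNT2, 17.4, 24.0 and 12.6 on day 3 and 68.1, 153 and 76.7 on day 28, higher in every day 28 library, while ATP2A2, at 450.1, 152 and 256 on day 3 and 231, 256 and 218 on day 28, overlapped.

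The remaining large rises were ADRA1A, an adrenergic receptor of cardiomyocytes (0.124, 0.261 and 0.110 CPM on day 3 and 1.16, 11.5 and 11.4 CPM on day 28, log2 fold change 5.61 ± 1.08, adjusted p = 0.00126), DHRS7C, an enzyme of the sarcoplasmic reticulum (log2 fold change 5.25 ± 1.24, adjusted p = 0.00449), LNP1 (log2 fold change 4.79 ± 0.95, adjusted p = 0.00157), FAIM2 (0.434, 0.955 and 0.147 CPM, then 29.1, 8.78 and 6.92 CPM, log2 fold change 4.89 ± 0.72, adjusted p = 0.000212), LRRN1 and STK32A. Of these, ADRA1A, DHRS7C and LNP1 were highest in 536, in the manner of muscle genes, and FAIM2 and LRRN1 highest in 523, in the manner of matrix genes. LRRN1, a membrane protein with leucine-rich repeats, had 3 reads in all over the day 3 libraries and 12.1, 4.29 and 3.18 CPM on day 28. STK32A, a kinase, was at 0.248, 0.391 and 0.404 CPM on day 3 and 4.17, 24.9 and 37.8 CPM on day 28 (log2 fold change 6.00 ± 1.69, adjusted p = 0.0113), and it was also higher on day 28 in remote muscle, at 23.9 to 74.4 CPM against 2.21 to 3.66 CPM on day 3.

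Endothelial genes moved little. PECAM1, the adhesion protein CD31, was at 378, 326 and 348 CPM on day 3 and 403, 309.9 and 277 CPM on day 28 (log2 fold change -0.09 ± 0.18, adjusted p = 0.718), and 2 of 16 endothelial genes rose and 0 fell, as shares below the background. ERG (log2 fold change 0.64 ± 0.24, adjusted p = 0.0414), a transcription factor, and ESAM (log2 fold change 0.35 ± 0.13, adjusted p = 0.0457), a junction protein, were those that rose. ERG did not pass without 523 (0.25, adjusted p = 0.236), 571 (0.57, adjusted p = 0.125), 573 (0.69, adjusted p = 0.0623) or 575 (0.67, adjusted p = 0.0827), nor ESAM without 536 (0.34, adjusted p = 0.0979), 547 (0.32, adjusted p = 0.113), 571 (0.32, adjusted p = 0.121) or 575 (0.28, adjusted p = 0.159), and neither passed with library totals or in the 6 libraries alone. PECAM1 changed sign without 547 (0.02, adjusted p = 0.936). Genes of pericytes and vascular smooth muscle rose in 6 of 10 cases. KCNJ8 and ABCC9, which form a potassium channel of pericytes and muscle, were at 26.8, 44.5 and 34.6 CPM on day 3 and 45.4, 89.1 and 95.8 CPM on day 28 (log2 fold change 1.12 ± 0.26, adjusted p = 0.00394), and at 7.26, 8.42 and 6.79 CPM on day 3 and 9.40, 19.6 and 18.6 CPM on day 28 (log2 fold change 1.08 ± 0.22, adjusted p = 0.00172), in both cases with 523 the lowest day 28 library. RGS5, a pericyte marker, was at 213, 149 and 152 CPM on day 3 and 370, 301 and 283 CPM on day 28 (log2 fold change 0.89 ± 0.22, adjusted p = 0.00542).

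**Figure D5:**
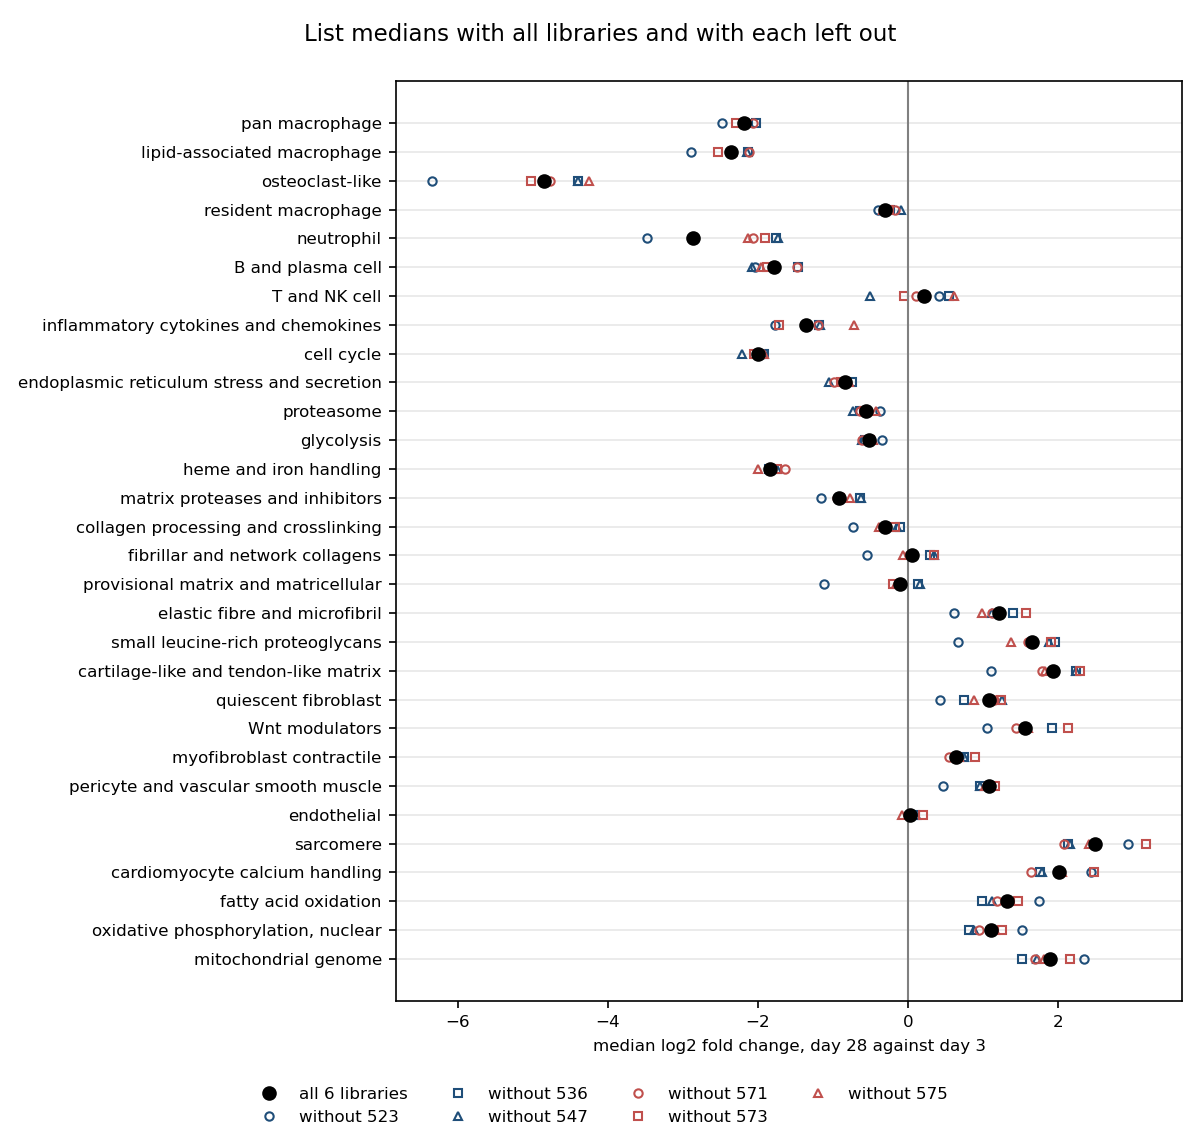
Median log2 fold change of each gene list, day 28 against day 3, with all 6 infarct PBS libraries (black) and with each library left out (open symbols). Medians of macrophage and cell cycle lists hardly move, while those of collagens and of the provisional matrix go from near 0 to -0.54 and -1.12 without 523.

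To ask whether these changes belonged to the infarct zone, the day change of the infarct was set against the day change of the remote zone of the same animals, with animal as a block. Of 15305 genes, 1974 (12.9%) were called with a more positive change in the infarct and 1802 (11.8%) with a more negative one, 24.7% in all. At an adjusted p under 0.05 alone the difference was positive for 20.9% and negative for 22.4% of genes, 43.3% in all. The log2 difference was -8.44 ± 1.14 (adjusted p = 0.000105) for SPP1, -3.03 ± 0.27 (adjusted p = 3.11e-06) for CD68, -3.60 ± 0.47 (adjusted p = 7.26e-05) for TIMP1 and -1.97 ± 0.38 (adjusted p = 0.00131) for TOP2A. It was 2.50 ± 0.70 (adjusted p = 0.0114) for TNNT2 and 1.14 ± 0.24 (adjusted p = 0.00194) for DCN. The most significant negative differences were those of ADAM8, a protease of leukocytes (-5.04 ± 0.23, adjusted p = 2.37e-08), IFI30, a lysosomal thiol reductase (-3.90 ± 0.18, adjusted p = 2.37e-08), LAT2 (-3.67 ± 0.17, adjusted p = 2.37e-08), PLEK, the platelet and leukocyte protein pleckstrin (-4.87 ± 0.25, adjusted p = 6.24e-08), and HMOX1 (-4.81 ± 0.26, adjusted p = 1.01e-07). Positive ones were ZNF239 (1.83 ± 0.15, adjusted p = 1.91e-06), GPR137C (3.15 ± 0.26, adjusted p = 2.06e-06), SYNPO2 (2.21 ± 0.20, adjusted p = 3.50e-06), LTBP4 (2.62 ± 0.24, adjusted p = 3.99e-06) and RUSC2 (1.25 ± 0.12, adjusted p = 4.48e-06). General macrophage genes had 10 of 11 lower at an adjusted p under 0.05 and cell cycle genes 18 of 20. Of 16 cartilage-like and tendon-like genes, 2 had a more positive and 1 a more negative change in the infarct at this threshold. COMP (2.15 ± 3.87, adjusted p = 0.683), CILP2 (4.58 ± 3.93, adjusted p = 0.365) and ACAN (2.98 ± 2.37, adjusted p = 0.329) did not pass. Their remote day 28 library of animal 547 held 83.4, 50.1 and 12.5 CPM, more than any remote library of day 3. For all 3 genes this was also more than the infarct library of 547 held. Both libraries labelled 573 enter this test as 1 animal, and without that animal 4062 genes were called.

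The same day change was compared with that of Agrin animals, 4 on each day. The PBS and Agrin changes in the infarct differed for 5 of 15060 genes (0.0332%) by edgeR, all more positive in PBS, and 2056 genes had an unadjusted p under 0.05. On simulated counts this test recovered 12 of 100 2-fold and 69 of 100 4-fold changes, so few calls do not show equal changes. List medians of the log2 difference ran from -1.54 for erythroid genes to 3.53 for cartilage-like and tendon-like genes. That of collagens was 1.51, and 0 genes of these 3 lists passed. The edgeR calls with a symbol were STAC2 (log2 difference 3.74 ± 0.55, adjusted p = 0.0421), MAP1LC3C, a microtubule-associated protein of autophagy (4.38 ± 0.66, adjusted p = 0.0485), and ADAMTS8, a metalloprotease (3.14 ± 0.40, adjusted p = 0.0158). DESeq2 called 265 genes. STAC2 was at 5.09, 7.77 and 4.26 CPM on day 3 and 7.93, 3.69 and 3.78 CPM on day 28 in PBS infarcts (log2 fold change -0.15 ± 0.38, adjusted p = 0.767), while its mean in Agrin infarcts was 8.90 ± 2.99 CPM (SD, n = 4) on day 3 and 0.609 ± 0.244 CPM (SD, n = 4) on day 28. In PBS infarcts ADAMTS8 was at 6.02, 5.73 and 5.84 CPM on day 3 and 15.8, 9.61 and 11.1 CPM on day 28 and MAP1LC3C at 0.186, 0.347 and 0.477 CPM on day 3 and 2.10, 2.23 and 3.90 CPM on day 28. Summed cardiomyocyte markers were 43300 to 51630 CPM in the day 28 infarct libraries of Agrin animals against 7336 to 36920 CPM with PBS, and the part of this difference in the result was not tested. Without 571 or without 575, 0 genes were called, and without 536 there were 86.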

How the data were processed

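RNA of pig left ventricle was sequenced as polyA libraries with molecular identifiers. Per the labels and the study's methods, the authors trimmed reads with cutadapt, aligned them with STAR 2.7.3a to Sscrofa11, removed duplicates by identifier with Picard 2.22.4 and counted reads per gene with HTSeq, and the deposited raw counts were used here. Deposited normalized values, scaled by the authors within treatment and day, were not used, because the days could not then be compared. Of 17603 genes, 13003 had a name in the files, 656 were named from RefSeq and 3944 stayed without one.

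Counts were scaled by TMM over all 28 libraries, and the day comparison was fitted to the 14 infarct libraries in 4 groups with edgeR 4.0.16 in R 4.3.3 (robust quasi-likelihood F-test, Benjamini-Hochberg adjustment over all genes tested, filterByExpr). Day 3 and day 28 were unpaired. The zone comparison used all 28 libraries with animal as a block, since the labels give both zones of each animal. The residuals of an animal's zones correlated at 0.049 to 0.697 across genes. Calls followed the study's thresholds, namely 0.05 for adjusted p, 1 for the size of the log2 fold change and more than 30 reads in some library. Each animal is 1 replicate. The infarct library of Agrin animal 577 was matched to a column whose zone letter is not explained, and it enters the scaling, the shared spread and the treatment comparison. Totals of 15.38 to 34.77 M counts set the precision, and a gene with 0 reads was bounded by 3 counts. Fits were tested on simulated data. The alternatives were DESeq2 1.42.0, other scalings, no filter, other sets of libraries and each library left out.

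Members, gene lists and tests were chosen with earlier results of these data known. Genes named were the key genes, the 10 largest rises and falls among called genes with a symbol, no overlap and a mean of at least 5 CPM in the higher group, and in each list the smallest p-values and members that moved against the rest. Genes in ratios, and TNMD, CALCR, FCGR1A and TYMS, were chosen after their values were seen. Promoter windows and coordinates came from RefSeq on Sscrofa11.1. Some named genes are not reported here.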

Additional observations from a re-analysis of the deposited data

Results flagged for a closer look

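The day change of the infarct differed from that of the remote zone for 3776 genes by edgeR, and this difference in effect between zones drew attention to the following genes. On the log2 scale, with negative values where the change was more negative in the infarct, key genes stood in the order SPP1 at -8.44, S100A8 at -5.82, MMP9 at -5.14, CCL2 at -4.57, GPNMB at -3.91, TIMP1 at -3.60, TREM2 at -3.24, JCHAIN at -3.17, CD68 at -3.03, TOP2A at -1.97, CD163 at -1.67 and FN1 at -1.54. On the positive side were ELN at 2.67, TNNT2 at 2.50, ATP2A2 at 2.36, MYH7 at 2.26 and DCN at 1.14. The 5 differences with the smallest p in each direction were ADAM8 at -5.04, PLEK at -4.87, HMOX1 at -4.81, IFI30 at -3.90 and LAT2 at -3.67, and GPR137C at 3.15, LTBP4 at 2.62, SYNPO2 at 2.21, ZNF239 at 1.83 and RUSC2 at 1.25. PBS and Agrin infarcts differed in their day change for 5 genes, of which those with a symbol were MAP1LC3C at 4.38, STAC2 at 3.74 and ADAMTS8 at 3.14. Groups of 3 libraries were too small for the check on a single sample far from the rest.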

How the results depend on the processing

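The 3790 genes called between days numbered 3773 to 3996 under RLE scaling, TMM without mitochondrial transcripts, TMM over infarct libraries, library totals, no filter and DESeq2, and 2817 in the 6 libraries alone. With adjusted p alone there were 7076, of which 3442 were higher and 3634 lower. Library totals alone left 1389 called higher, and the 6 libraries alone 1283. Leaving out 1 library gave 3087 to 4318. The zone difference (3776 genes) gave 6629 with adjusted p alone (3196 higher, 3433 lower), and library totals moved it to 1291 higher and 2855 lower, or 31.1% higher. Without the replicate block, which pairs the zones of an animal, it gave 3299, of which 3201 were shared, and leaving out 1 animal gave 3244 to 4062. The treatment difference (5 genes) gave 8 with TMM without mitochondrial transcripts and 265 with DESeq2 (254 higher, 11 lower), and 0 to 86 with 1 library left out (0 to 84 higher, 0 to 2 lower). The sign of the day change turned without 523 for COL3A1 (-0.57) and LOX (-0.49), without 536 for POSTN (0.20) and STAC2 (0.04), without 547 for POSTN (0.22), STAC2 (0.03), CD3E (-0.28) and PECAM1 (0.024), and without 573 for COL1A1 (0.014) and STAC2 (0.14). Over the libraries left out, values ran from -1.48 to 0.014 for COL1A1, -0.57 to 0.66 for COL3A1, -0.49 to 0.73 for LOX, -1.20 to 0.22 for POSTN, -0.61 to 0.14 for STAC2, -0.28 to 0.74 for CD3E and -0.26 to 0.024 for PECAM1. Of the genes named in the text, ADAMTS2, ASPN, CCL5, CCN5, CD36, COL14A1, COL21A1, COX7A1, CXCL10, DCN, EMILIN1, ERG, ESAM, FMOD, HBB, JCHAIN, MYOM1, NDUFS1, NEBL, PRELP, SOX10, TGFB3, TM6SF1, TMEM106A and TNNT2 no longer passed in the 6 libraries alone, and ADAMTS2, ADAMTS8, COL14A1, CXCL10, DCN, ELN, ERG, ESAM, RGS5, TM6SF1 and TMEM106A with library totals alone. The cause was not tested.

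Limits are 3 animals a day, day 28 libraries that differ in muscle content, and libraries labelled 573 that differ in Y-linked reads. The standard errors cover counting and the spread between the animals of each fit.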

Other observations

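Some genes of mast cells, nerves and the interferon response passed the test, on lists too short or too near the background (22.9% rose, 24.1% fell) to speak for the cell type. On the mast cell list 3 of 5 rose and 0 fell, with FCER1A, a chain of the IgE receptor, at 0.620, 0.738 and 1.84 CPM on day 3 and 6.74, 4.39 and 6.09 CPM on day 28 (log2 fold change 2.43 ± 0.61, adjusted p = 0.00647). KIT, the stem cell factor receptor of mast cells, had a lower mean on day 28, at 32.0, 47.3 and 39.9 CPM on day 3 and 34.8, 15.7 and 11.2 CPM on day 28, and did not pass the test. On the interferon list 4 of 12 rose and 0 fell, and 2 rose with library totals alone or without 547, 571, 573 or 575. The smallest p was that of RSAD2, the antiviral protein viperin (2.82, 2.73 and 7.27 CPM, then 11.8, 16.3 and 52.9 CPM, log2 fold change 2.65 ± 0.62, adjusted p = 0.00417). Of Schwann cell genes, 2 of 6 rose and 1 fell. SOX10, the transcription factor of the lineage, rose by 1.93 ± 0.65 log2 units (adjusted p = 0.027) but did not pass without 523 (1.25, adjusted p = 0.113), 571 (1.83, adjusted p = 0.0841) or 575 (1.53, adjusted p = 0.0939), while MBP fell by 1.72 ± 0.32 log2 units (adjusted p = 0.000945).

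Hypoxia targets were split. VEGFA, the main growth factor for vessels, was at 46.7, 22.8 and 28.6 CPM on day 3 and 58.4, 118 and 159.8 CPM on day 28 (log2 fold change 1.77 ± 0.34, adjusted p = 0.00114), lowest in 523 on day 28, and ADM, adrenomedullin, rose by 1.39 ± 0.23 log2 units (adjusted p = 0.00052), whereas NDRG1 fell by 1.54 ± 0.31 log2 units (adjusted p = 0.00151). PI16, a marker of fibroblasts around vessels, was at 77.2, 198 and 69.8 CPM on day 3 and 1303, 392 and 378 CPM on day 28 (log2 fold change 2.59 ± 0.72, adjusted p = 0.0106), and gave, per 1000 reads of COL1A1, 7.41, 10.4 and 8.06 on day 3 and 66.1, 77.0 and 93.2 on day 28. MRC1, the mannose receptor of macrophages, gave, per 1000 reads of CD68, 186, 220.2 and 176 on day 3 and 429, 1512 and 1523 on day 28, without overlap.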
